A study of Mus musculus with 16 samples.

Results

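The values below describe 41 genes of ribosome assembly and RNA polymerase I among the 24411 genes counted in each library of a mouse liver study. The 41 genes were selected by name from a group drawn up after levels in these same libraries had been seen, and their levels and differences are therefore given as a description, with errors and counts. All 41 had enough reads to be among the 12901 genes tested. Ribosomes are assembled in the nucleolus. RNA polymerase I transcribes the precursor of the large ribosomal RNAs there, small nucleolar ribonucleoproteins (snoRNPs) guide its chemical modification, and assembly factors cut, fold and load it with ribosomal proteins to give the small and the large subunit. In liver, as in other tissues, demand for new ribosomes is tied to growth and nutrition, and the transcription factor Myc is a known activator of many of these genes.

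The libraries are polyadenylated RNA from mouse liver, in 4 groups of 4. PF mice were controls, pair-fed and given vehicle. EtOH mice received vehicle and an ethanol diet after the NIAAA model, which combines chronic and binge drinking. EtOH+MBV mice had that ethanol diet and PF+MBV mice the pair-feeding, each treated with MBV, matrix-bound nanovesicles, which are vesicles embedded in the extracellular matrix. The labels used here give no strain, age, sex, or dose of MBV, and do not say whether a group's 4 libraries are 4 mice. Errors and p-values then measure only the spread between these libraries, which may be technical. The design asks how the ethanol diet, and MBV on each diet, alter expression in the liver, and whether the effect of MBV depends on the diet.

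The libraries held 15.3 to 20.5 M reads counted in genes, of which 16866 to 32181 fell in the 41 genes. The liver label was checked on Alb (albumin) at 62533 to 98068 CPM and Hnf4a, a hepatocyte transcription factor, at 662 to 1152 CPM across the libraries. CPM are counts per 1 M reads of the library after scaling. PF 2 gave the lowest level of its group for 31 of the 41 genes and for 29.4% of all genes tested. EtOH+MBV 1 did so for 28 of the 41 and for 33.7% of all genes, and it lay apart from its group on the first principal component. EtOH 1 lay apart on the second. Reads that did not map to the genome made up 15.9% to 19.89% of the PF libraries, 14.49% to 16.04% of PF+MBV, 11.87% to 13.83% of EtOH and 11.57% to 13.71% of EtOH+MBV. The part of these shares in the results was not tested.

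Of the genes whose promoter could be read, 10 carry near their start the letters of an E-box, the kind of site that Myc binds with its partner Max. The 10 stretches are shown because the choice of genes did not use sequence. In the RefSeq promoter table (build GRCm38.p6, 250 bases before to 50 after each annotated start), 36 of the 41 genes matched, with 38 windows. The genes Rrp12, Fbl, Npm1, Bop1 and Rrs1 had no entry. The motif CACGTG, which reads the same on both strands, was in 10 of the 38 windows (26.3%), against 9.79% of the 13100 windows of tested genes and 7.15% of all 32851 windows. In the 50 bases after the start it was in 9 windows (23.7%), against 1.49% of those of tested genes. In the 250 bases before the start it was in 1 window (2.63%), against 8.18%. Each line gives 30 bases from 5′ to 3′ on the gene's strand, with the motif in capitals.
Tsr1 (chr11:74898092-74898121, + strand): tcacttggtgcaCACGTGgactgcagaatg
Utp20 (chr10:88826765-88826794, - strand): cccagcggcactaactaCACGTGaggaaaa
Utp4 (chr8:106893643-106893672, + strand): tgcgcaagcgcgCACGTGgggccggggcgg
Wdr43 (chr17:71616220-71616249, + strand): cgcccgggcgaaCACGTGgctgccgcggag
Pes1 (chr11:3963965-3963994, + strand): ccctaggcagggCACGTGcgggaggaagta
Mybbp1a (chr11:72441347-72441376, + strand): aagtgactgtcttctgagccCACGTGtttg
Ltv1 (chr10:13193092-13193121, - strand): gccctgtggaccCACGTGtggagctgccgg
Grwd1 (chr7:45830740-45830769, - strand): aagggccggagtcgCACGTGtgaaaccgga
Nle1 (chr11:82908355-82908384, - strand): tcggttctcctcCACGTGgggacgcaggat
Nop2 (chr6:125131811-125131840, + strand): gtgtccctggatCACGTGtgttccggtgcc

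The motif began 3 bases (Pes1) to 41 bases (Mybbp1a) after the start in 9 of the genes. In Nop2 it lay before the start, at base -60. The related letters CACGCG, searched on both strands, were in 12 of the 38 windows (31.6%), against 16.3% of those of tested genes. A match is a run of letters and not a measured binding site. The 10 genes with CACGTG and the 26 matched genes without it were also set side by side. Their median log2 differences were -0.40 and -0.54 for PF+MBV against PF, and 0.90 and 0.76 between the MBV groups.

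The assembly genes stood lower in PF+MBV than in each other group. Between EtOH+MBV and EtOH they differed little. The sign of that difference depended on how the genes were summarised and the libraries scaled. Their summed share of gene counts was 0.147%, 0.118%, 0.139% and 0.147% in PF 1 to 4 and 0.105%, 0.108%, 0.113% and 0.105% in PF+MBV 1 to 4. It was 0.197%, 0.141%, 0.144% and 0.164% in EtOH 1 to 4 and 0.130%, 0.157%, 0.171% and 0.164% in EtOH+MBV 1 to 4. Each PF+MBV library was thus below each library of the other groups. The mean share was 0.138% ± 0.0138 (SD, n = 4) in PF, 0.161% ± 0.0260 in EtOH, 0.155% ± 0.0178 in EtOH+MBV and 0.107% ± 0.00375 in PF+MBV. A single gene, Rcl1, described with its role further on, carried much of the excess of EtOH over PF, with a mean share of 0.0161% in PF and 0.0317% in EtOH. Without Rcl1 the mean share was 0.122% ± 0.0129 in PF, 0.130% ± 0.0303 in EtOH, 0.130% ± 0.0126 in EtOH+MBV and 0.0931% ± 0.00376 in PF+MBV, and each PF+MBV library was still below each other library. For 36 of the 41 genes the PF+MBV mean was the lowest of the 4 group means, which held for 25.9% of all genes tested. For 28 the EtOH+MBV mean was the highest, which held for 22.4% of all genes. In bulk tissue, fewer cells of a type and less RNA per cell cannot be told apart.

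**Figure D1:**
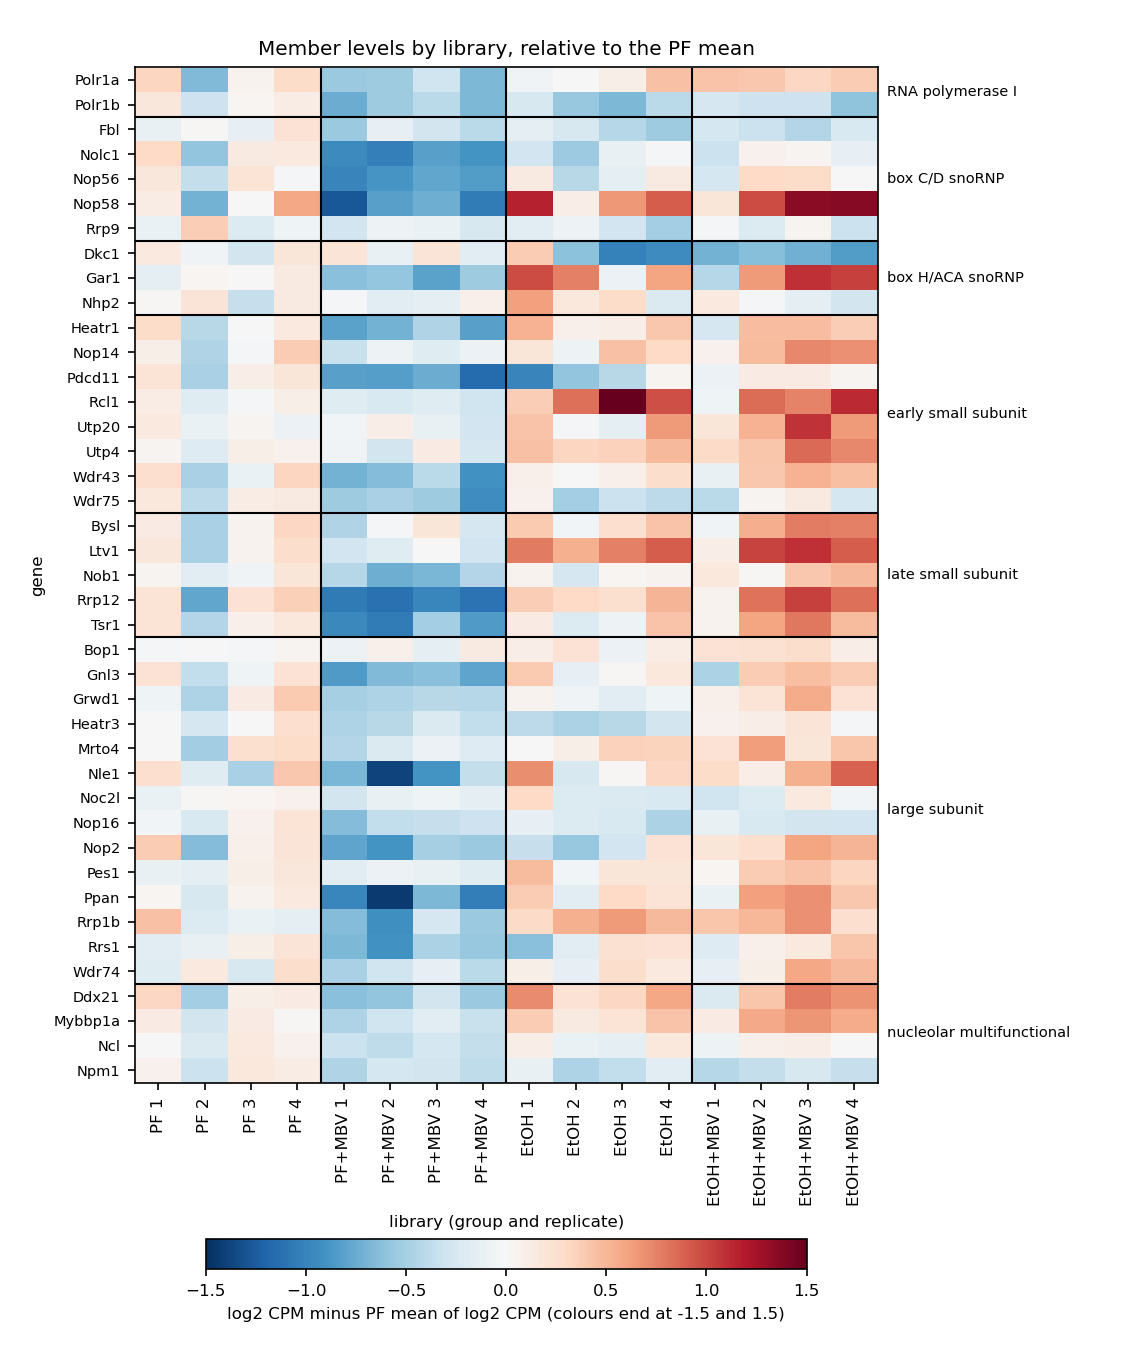
Level of each of the 41 genes (rows, by role) in each of the 16 libraries (columns, by group), as log2 CPM minus the average of the 4 PF libraries. The PF+MBV columns are the lowest group for 36 of the 41 rows, and PF 2 is the lowest PF library for 31 of 41 genes.

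A mean over the 41 genes of log2 CPM relative to PF, which gives each gene the same weight, was also lowest in PF+MBV. It placed EtOH+MBV above EtOH, the reverse of the summed share. The 2 measures also differ in scaling, since the share used unscaled gene counts. Summed CPM of the 41 genes, after scaling, was 1650 ± 238 (SD, n = 4) in EtOH+MBV and 1576 ± 130 in EtOH, so that sum did not reverse. Group means of the log2 measure were 0.23 ± 0.20 (SD, n = 4) in EtOH+MBV, 0.08 ± 0.12 in EtOH and -0.47 ± 0.08 in PF+MBV. By library the log2 measure was 0.10, -0.28, 0.01 and 0.17 in PF 1 to 4 and -0.53, -0.50, -0.35 and -0.50 in PF+MBV 1 to 4. In EtOH 1 to 4 it was 0.18, -0.07, 0.04 and 0.17, and in EtOH+MBV 1 to 4 it was -0.05, 0.27, 0.41 and 0.30. The PF+MBV libraries lay below all others, with PF 2 the nearest. Over all genes tested the same mean stayed between -0.0231 and 0.0338 in the 16 libraries.

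**Figure D2:**
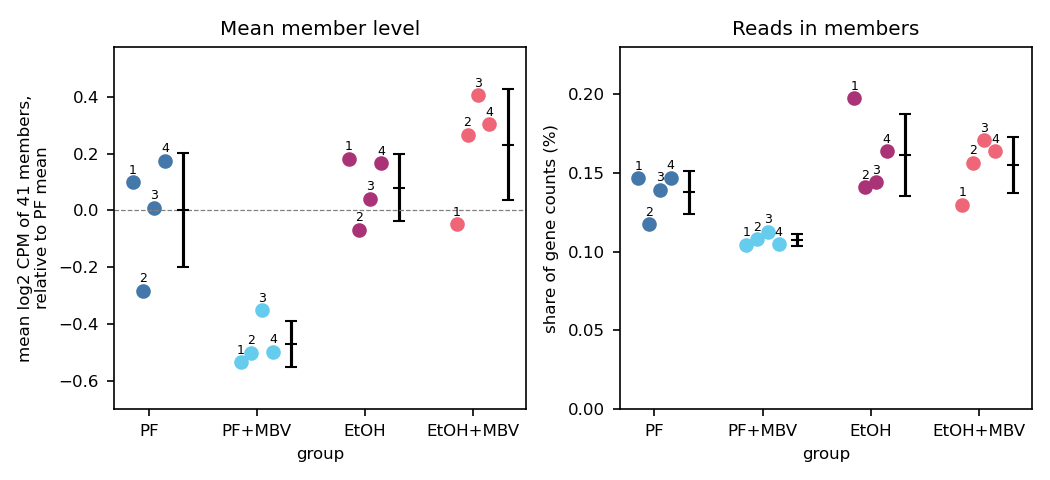
Mean log2 CPM of the 41 genes relative to the PF mean (y axis) for each library (points) in the 4 groups, with the group mean and SD (n = 4). The 4 PF+MBV libraries lie between -0.53 and -0.35 and the lowest of the others, PF 2, lies at -0.28.

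In PF+MBV against PF, 39 of the 41 genes had a fitted log2 difference below 0, where 49.4% of all genes did, and the median was -0.48 against 0.00 over all genes. The difference was called, at an adjusted p under 0.05 over all genes tested, for 11 genes, all lower: Nop56, Nolc1, Ppan, Tsr1, Rrp12, Pdcd11, Nob1, Heatr1, Wdr43, Polr1b and Gnl3. Over all genes 1.03% were called lower in this comparison. For 17 of the 41 genes each PF+MBV library was below each PF library, which held for 7.26% of all genes. Since these libraries had been seen when the genes were chosen, the counts are read as a description. The number called depended on the fit and on single libraries. Other ways of fitting gave 21 (DESeq2), 19 (PF and PF+MBV fitted alone) and 6 (scaling by library size only). It was 3 without PF 1, PF 3, PF 4, PF+MBV 1, PF+MBV 2 or PF+MBV 4, 7 without PF+MBV 3, and 23 without PF 2. The share of all genes called in these fits is not given here. The counts therefore do not separate a change in the 41 genes from one over all genes. The genes Nop56, Nolc1 and Ppan were called whichever of the 16 libraries was left out. The median stayed between -0.61 and -0.36.

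In EtOH+MBV against PF+MBV, which shares the PF+MBV libraries with the comparison above, 32 of the 41 genes were called higher and 1, Dkc1, lower. Over all genes 19.2% were called higher and 16.7% lower. The median log2 difference was 0.77, against -0.01 over all genes, and for 31 of the 41 each EtOH+MBV library was above each PF+MBV library (19.2% of all genes). The genes Nop16, Rrp9, Fbl, Npm1, Bop1, Polr1b, Nhp2 and Noc2l were not called. Leaving out any 1 library left 31 to 33 of the genes called, 30 of them in all 16 cases. Summed levels of 8 hepatocyte markers were 118447 to 135056 CPM in EtOH+MBV and 87635 to 104354 CPM in PF+MBV. Alb, at 62533 to 98068 CPM across the libraries, makes up a large part of this sum. Of the 8 markers 7 had a fitted difference above 0 and 3 were called higher. Other marker sums were lower in EtOH+MBV without overlap: 51.1 to 75.6 against 87.2 to 95.7 CPM for 10 monocyte and macrophage markers, 186 to 256.9 against 257.3 to 295 CPM for 8 stellate cell markers and 24.3 to 30.2 against 34.9 to 43.5 CPM for 10 cell cycle genes. The 9 markers of T, B and NK cells summed to 1.70 to 2.29 against 3.75 to 5.27 CPM. The sums of 8 Kupffer cell and of 8 endothelial markers overlapped between these groups. Of the Kupffer cell markers 3 were called lower and 1 higher, and of the endothelial markers 5 lower and 1 higher. Of the stellate cell markers 2 were called lower and 0 higher. Of 58 markers tested, 7 were called higher and 16 lower. The part of these markers in the difference was not tested.

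The ethanol diet with vehicle gave a mixed picture against PF. Rrp1b, Utp4, Ltv1 and Rcl1 were called higher and Pdcd11, Heatr3, Fbl and Polr1b lower. These 8 genes are 19.5% of the 41, where 39.8% of all genes were called, 20.4% higher and 19.5% lower. Of the 8, Heatr3, Polr1b, Ltv1 and Rcl1 were called whichever of the 16 libraries was left out, and each of the other 4 lost its call in at least 1 case. Over the 26 alternative fits Pdcd11 was called in 7 and Fbl in 18. Fitting EtOH and PF alone called 5. The median log2 difference was 0.08, and it was -0.01 without PF 2. In EtOH+MBV against EtOH, which shares the EtOH libraries with that comparison, 34 of 41 genes had a fitted difference above 0 (50.9% of all genes), with a median of 0.17 against 0.01 over all genes. Heatr3 alone was called, higher, where 1.24% of all genes were called higher. With EtOH and EtOH+MBV fitted alone, 0 of the 41 and 0 of all genes were called. With scaling by library size only, the count was 0 and the median 0.03, against -0.11 over all genes. The count was also 0 without EtOH 1, EtOH 2, EtOH+MBV 2 or EtOH+MBV 3, and 3 without EtOH 4.

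**Figure D3:**
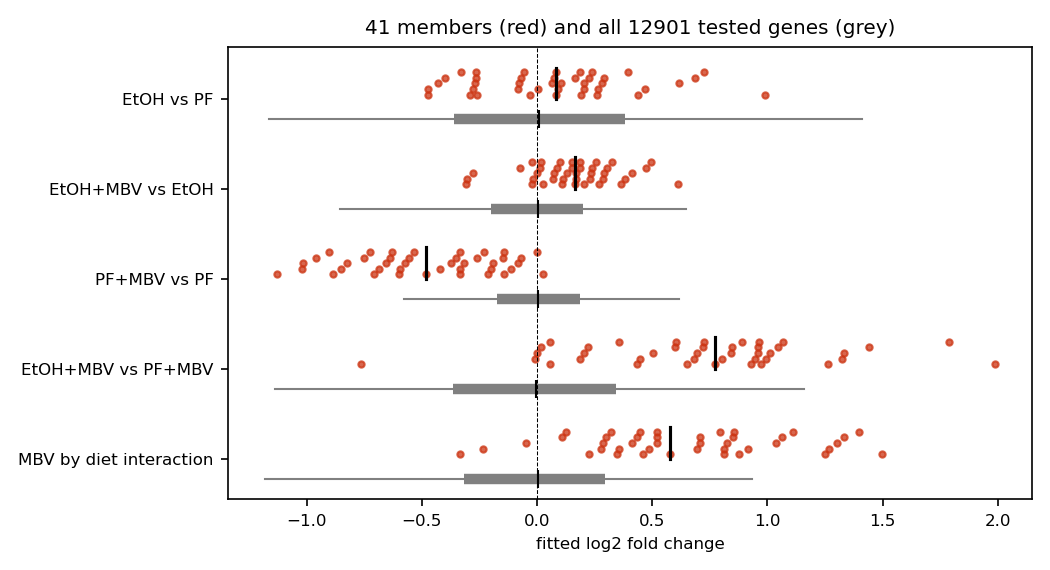
Fitted log2 differences in the 4 group comparisons and in the MBV by diet difference, for the 41 genes (points) beside all 12901 genes tested. The 41 genes center on -0.48 in PF+MBV against PF and on 0.77 between the MBV groups, where the medians of all genes are 0.00 and -0.01.

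By role, the median log2 difference in PF+MBV against PF was -0.89 for the 5 box C/D genes and -0.58 for the 2 subunits of RNA polymerase I. It was -0.57 for the 5 late and -0.43 for the 8 early factors of the small subunit, and -0.45 for the 14 factors of the large subunit. The 4 abundant nucleolar proteins had a median of -0.34 and the 3 box H/ACA genes -0.07. The box C/D genes spanned -1.02 to -0.19 and the large-subunit factors -1.01 to 0.00, so members of a role differed widely among themselves.

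RNA polymerase I was represented by Polr1a, its largest subunit (chr6:71909053-71984935 in GRCm38, as are the gene positions that follow), and Polr1b, its second largest (chr2:129100995-129126594). Pair-fed levels of Polr1a were 46.4, 23.5, 38.3 and 45.0 CPM in PF 1 to 4 and 25.3, 25.6, 30.2 and 23.2 CPM in PF+MBV 1 to 4. Those on ethanol were 35.7, 37.1, 39.3 and 50.2 CPM in EtOH 1 to 4 and 50.0, 49.1, 46.1 and 48.4 CPM in EtOH+MBV 1 to 4. PF 2 overlapped the PF+MBV libraries, while each EtOH+MBV library was above each PF+MBV library. The mean was 38.3 ± 10.5 CPM (SD, n = 4) in PF and 26.1 ± 2.95 in PF+MBV, a log2 difference of -0.55 ± 0.17 (SE). Between the MBV groups it was 0.89 ± 0.17. Polr1b measured 30.6, 21.8, 27.6 and 29.3 CPM in PF 1 to 4 and 16.2, 18.7, 20.5 and 17.0 CPM in PF+MBV 1 to 4. It was at 22.9, 18.3, 17.0 and 20.5 CPM in EtOH 1 to 4 and 22.8, 21.9, 21.8 and 17.8 CPM in EtOH+MBV 1 to 4. Each PF+MBV library was lower than each PF library, but the ethanol groups were low as well. Polr1b thus differed by -0.60 ± 0.13 on the log2 scale in PF+MBV against PF, by -0.47 ± 0.13 in EtOH against PF and by 0.22 ± 0.13 in EtOH+MBV against PF+MBV.

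Box C/D snoRNPs carry out 2′-O-methylation of ribosomal RNA, and their core includes the methyltransferase fibrillarin (Fbl) and the paired proteins Nop56 and Nop58. Levels of Nop56 were 32.3, 22.2, 33.0 and 28.2 CPM in PF 1 to 4 and 14.4, 15.5, 16.7 and 16.0 CPM in PF+MBV 1 to 4. With ethanol they were 31.3, 21.4, 25.8 and 31.3 CPM in EtOH 1 to 4 and 23.8, 35.2, 34.5 and 28.6 CPM in EtOH+MBV 1 to 4. The PF+MBV libraries were the lowest 4 of the 16, with no overlap, and the other groups overlapped each other. Nop56 (chr2:130274430-130279313) averaged 28.9 ± 4.93 CPM in PF and 15.7 ± 0.968 in PF+MBV, 1.85-fold lower, with a log2 difference of -0.89 ± 0.15. In CPM, Nop58 was at 24.1, 13.7, 22.5 and 33.5 in PF 1 to 4 and at 9.23, 12.7, 13.5 and 10.8 in PF+MBV 1 to 4. The ethanol groups had 49.7, 24.0, 35.0 and 42.0 CPM in EtOH 1 to 4 and 25.3, 43.9, 56.9 and 57.7 CPM in EtOH+MBV 1 to 4. Nop58 (chr1:59684971-59719044) likewise had its 4 lowest levels in PF+MBV. Its log2 difference was -1.02 ± 0.29 against PF, which was not called, and 1.99 ± 0.29 in EtOH+MBV against PF+MBV, the largest of the 41 genes in that comparison.

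Fbl had another profile than these partners. Fbl stood at 25.0, 27.3, 24.8 and 31.3 CPM in PF 1 to 4 and at 18.3, 24.8, 22.3 and 20.3 CPM in PF+MBV 1 to 4. EtOH 1 to 4 gave 24.3, 22.9, 20.1 and 18.7 CPM and EtOH+MBV 1 to 4 gave 22.5, 21.6, 19.9 and 22.9 CPM. PF 4, PF 2 and PF 1 held the 3 highest levels, and the other libraries overlapped. The log2 difference was -0.33 ± 0.12 in EtOH against PF, -0.34 ± 0.12 in PF+MBV against PF and 0.02 ± 0.12 between the MBV groups. Nolc1, a nucleolar phosphoprotein that chaperones snoRNPs (chr19:46075863-46085530), had a profile like that of Nop56. Pair-fed levels of Nolc1 were 57.5, 31.1, 51.4 and 51.6 CPM in PF 1 to 4 and 24.1, 22.9, 26.5 and 25.0 CPM in PF+MBV 1 to 4. Those on ethanol were 38.2, 31.9, 43.4 and 45.9 CPM in EtOH 1 to 4 and 37.3, 48.8, 47.9 and 42.8 CPM in EtOH+MBV 1 to 4. No PF+MBV library reached any library of the other groups, and the log2 difference was -0.96 ± 0.16 against PF and 0.84 ± 0.16 between the MBV groups. Rrp9, a protein of the U3 snoRNP, differed by -0.19 ± 0.15 and 0.05 ± 0.15 in the same comparisons.

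The box H/ACA snoRNPs, which convert uridine to pseudouridine, had unlike profiles. Dkc1 is the pseudouridine synthase (chrX:75095854-75109777). Dkc1 measured 16.0, 13.9, 11.9 and 16.4 CPM in PF 1 to 4 and 16.5, 13.4, 16.6 and 12.8 CPM in PF+MBV 1 to 4. It was at 18.8, 9.42, 7.18 and 7.48 CPM in EtOH 1 to 4 and 8.83, 9.24, 8.79 and 8.10 CPM in EtOH+MBV 1 to 4. Each EtOH+MBV library was below each PF+MBV library, the reverse of most of the 41 genes, and EtOH 1 stood apart from the other EtOH libraries. The log2 difference was -0.76 ± 0.24. Between PF+MBV and PF it was 0.03 ± 0.23, with overlap. In the GENCODE M21 annotation Dkc1 shares exon sequence with Mpp1, a neighbouring gene. The libraries keep no strand, and unstranded counts set reads on shared bases apart as ambiguous. The gene models used for these counts were not given, so it is not known whether Dkc1 lost reads this way. Nhp2, another core protein, overlapped between PF and PF+MBV. Levels of Nhp2 were 15.6, 17.7, 12.1 and 16.9 CPM in PF 1 to 4 and 15.1, 13.8, 14.1 and 16.2 CPM in PF+MBV 1 to 4. With ethanol they were 23.6, 17.2, 18.7 and 13.2 CPM in EtOH 1 to 4 and 17.0, 15.1, 14.1 and 12.7 CPM in EtOH+MBV 1 to 4. The log2 difference of -0.07 ± 0.16 in PF+MBV against PF was within its error. Gar1, a further core protein, had a profile nearer to that of Nop58. In CPM, Gar1 was at 5.32, 6.01, 5.88 and 6.46 in PF 1 to 4 and at 3.82, 3.95, 3.38 and 4.07 in PF+MBV 1 to 4. The ethanol groups had 11.7, 10.0, 5.57 and 8.90 CPM in EtOH 1 to 4 and 4.39, 9.17, 12.6 and 12.0 CPM in EtOH+MBV 1 to 4. EtOH+MBV 1 was far below the rest of its group. The log2 difference of Gar1 was -0.64 ± 0.27 in PF+MBV against PF, with no overlap and no call, and 1.32 ± 0.27 between the MBV groups.

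**Figure D4:**
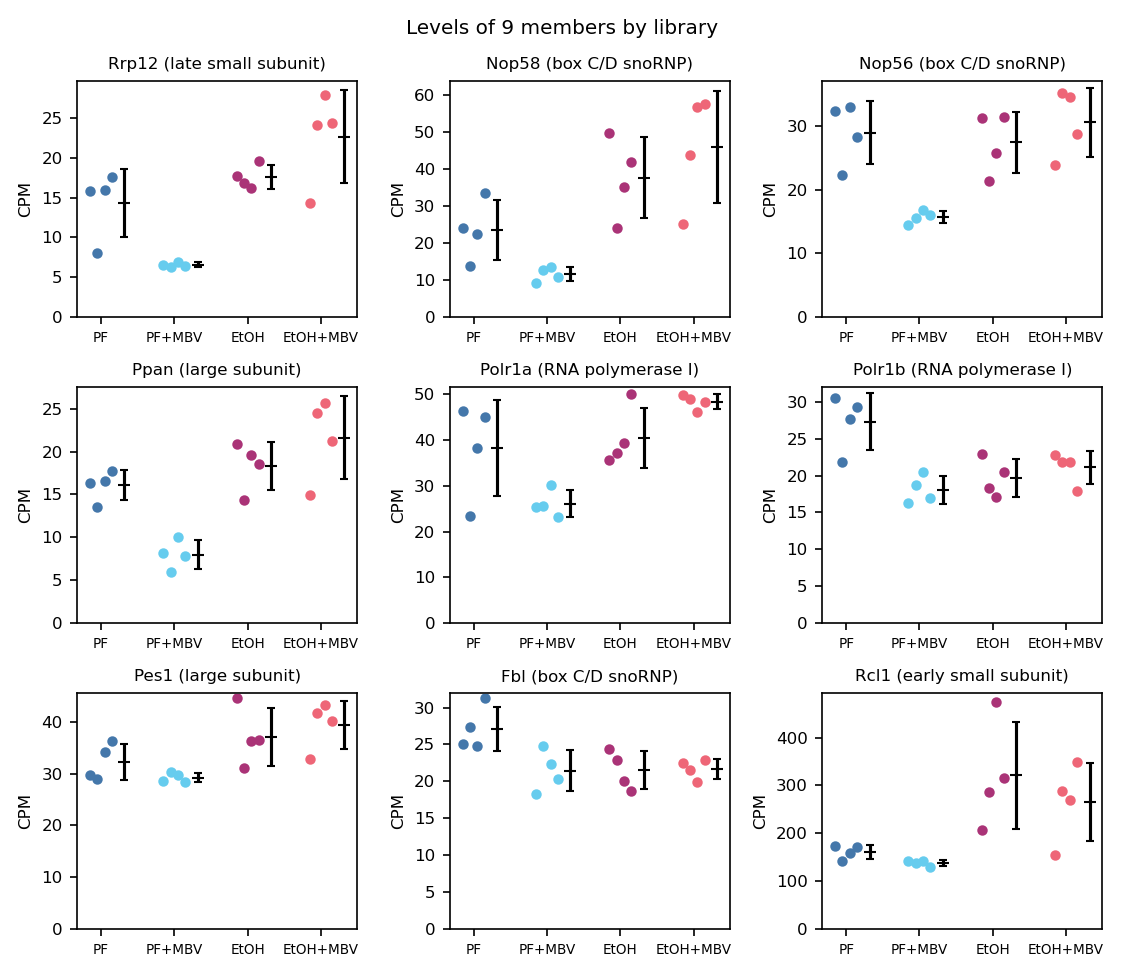
CPM of selected genes (panels) in the 4 groups, with 1 point per library and the group mean and SD (n = 4). Nop56 and Rrp12 have their 4 lowest libraries in PF+MBV, and each EtOH library of Rcl1 lies above each of its PF libraries.

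The 8 early factors of the small subunit act in the precursor particle that forms on the new transcript. All 8 had a fitted difference below 0 in PF+MBV against PF, as did 49.4% of all genes. Of them 3 were called lower, where 1.03% of all genes were. All 8 were called higher in EtOH+MBV against PF+MBV, where 19.2% of all genes were. Heatr1, needed for transcription and early processing of the precursor (chr13:12395027-12440289), was lower by a log2 difference of -0.71 ± 0.17 on MBV in the pair-fed groups. Heatr1 stood at 35.0, 21.6, 28.7 and 31.8 CPM in PF 1 to 4 and at 16.6, 17.7, 21.0 and 16.3 CPM in PF+MBV 1 to 4. EtOH 1 to 4 gave 41.4, 30.2, 30.9 and 38.0 CPM and EtOH+MBV 1 to 4 gave 24.2, 39.6, 39.7 and 37.3 CPM. PF 2 lay just above the PF+MBV range, and EtOH+MBV 1 lay well under the rest of its group. Pdcd11 (chr19:47090768-47131865) encodes a large RNA-binding scaffold. Pair-fed levels of Pdcd11 were 51.4, 31.6, 47.8 and 50.3 CPM in PF 1 to 4 and 25.3, 25.0, 26.5 and 20.0 CPM in PF+MBV 1 to 4. Those on ethanol were 22.5, 29.4, 33.4 and 45.6 CPM in EtOH 1 to 4 and 41.8, 48.4, 48.5 and 45.5 CPM in EtOH+MBV 1 to 4. Its levels in EtOH were below those of PF 1, PF 3 and PF 4, with a log2 difference of -0.47 ± 0.18. With MBV it was -0.90 ± 0.18 on the pair-fed diet and 0.50 ± 0.18 on ethanol. Wdr43 (chr17:71615895-71659031), a protein of the same particle, was the third factor called. Wdr43 measured 36.8, 22.1, 28.9 and 38.6 CPM in PF 1 to 4 and 18.9, 19.6, 23.4 and 16.5 CPM in PF+MBV 1 to 4. It was at 32.6, 30.9, 32.5 and 37.1 CPM in EtOH 1 to 4 and 28.6, 40.9, 44.5 and 42.2 CPM in EtOH+MBV 1 to 4. PF 2 overlapped the PF+MBV libraries. The log2 difference of Wdr43 was -0.69 ± 0.17 in PF+MBV against PF and 0.99 ± 0.17 between the MBV groups.

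Utp20, a scaffold of the same particle, had overlapping levels in PF and PF+MBV. Levels of Utp20 were 22.8, 19.4, 21.3 and 19.4 CPM in PF 1 to 4 and 20.2, 22.1, 19.2 and 17.0 CPM in PF+MBV 1 to 4. With ethanol they were 27.9, 20.2, 18.9 and 32.2 CPM in EtOH 1 to 4 and 23.5, 29.7, 43.9 and 32.3 CPM in EtOH+MBV 1 to 4. EtOH+MBV 3 was the highest library, and each EtOH+MBV library was above each PF+MBV library. Its log2 difference was -0.08 ± 0.18 in PF+MBV against PF and 0.72 ± 0.18 between the MBV groups. Rcl1, a cyclase-like protein of this class (chr19:29101375-29143929), stood higher on the ethanol diet with and without MBV. In CPM, Rcl1 was at 173, 142, 159 and 172 in PF 1 to 4 and at 142, 137, 142 and 130.4 in PF+MBV 1 to 4. The ethanol groups had 207, 286, 475 and 315 CPM in EtOH 1 to 4 and 154, 287, 269 and 349.6 CPM in EtOH+MBV 1 to 4. Each library on ethanol with vehicle was above each PF library, with a log2 difference of 0.99 ± 0.23 between EtOH and PF. The difference was -0.23 ± 0.23 with MBV on the pair-fed diet and -0.28 ± 0.23 on ethanol. Per kilobase of exon it was also the most abundant of the 41 genes in PF, at 85.4 CPM per kb. Next came Npm1 at 40.9 and Ncl at 17.9, and the lowest was Rrp1b at 1.00 CPM per kb.

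The 5 late factors of the small subunit act on the particle as it matures and leaves the nucleus. Rrp12, an export factor (chr19:41862851-41896173), showed the largest log2 difference of the 41 genes between PF+MBV and PF. Rrp12 stood at 15.8, 8.02, 16.0 and 17.6 CPM in PF 1 to 4 and at 6.58, 6.33, 6.98 and 6.36 CPM in PF+MBV 1 to 4. EtOH 1 to 4 gave 17.7, 16.9, 16.2 and 19.6 CPM and EtOH+MBV 1 to 4 gave 14.3, 24.1, 27.9 and 24.4 CPM. All 4 PF+MBV libraries were lower than all other libraries, though PF 2 was close to them, and EtOH+MBV 2, 3 and 4 were the highest. Mean Rrp12 was 14.4 ± 4.31 CPM in PF, 17.6 ± 1.48 in EtOH, 22.7 ± 5.84 in EtOH+MBV and 6.56 ± 0.299 in PF+MBV. The log2 difference was -1.13 ± 0.22 in PF+MBV against PF, 2.19-fold lower, and 1.79 ± 0.22 between the MBV groups.

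Tsr1, a protein that resembles a translational GTPase (chr11:74898071-74909342), had a similar profile. Pair-fed levels of Tsr1 were 21.6, 13.8, 19.9 and 20.9 CPM in PF 1 to 4 and 9.58, 9.09, 13.2 and 10.4 CPM in PF+MBV 1 to 4. Those on ethanol were 20.5, 16.3, 17.8 and 25.3 CPM in EtOH 1 to 4 and 19.5, 28.3, 32.6 and 26.2 CPM in EtOH+MBV 1 to 4. The PF+MBV libraries were again the lowest 4. The log2 difference was -0.85 ± 0.19 against PF and 1.33 ± 0.19 between the MBV groups. Nob1 makes the final cut of the small-subunit RNA (chr8:107412486-107425051). Nob1 measured 12.1, 10.4, 11.4 and 13.3 CPM in PF 1 to 4 and 8.70, 7.08, 7.29 and 8.65 CPM in PF+MBV 1 to 4. It was at 12.1, 9.89, 12.0 and 12.2 CPM in EtOH 1 to 4 and 13.1, 11.9, 15.6 and 16.5 CPM in EtOH+MBV 1 to 4. The PF+MBV levels were the lowest, and EtOH 2 stood apart from its group. The log2 difference was -0.57 ± 0.13 against PF. Bysl and Ltv1, late factors near the export step, differed less with MBV in the pair-fed groups. Levels of Bysl were 16.5, 10.8, 15.7 and 18.8 CPM in PF 1 to 4 and 11.1, 15.0, 17.1 and 12.7 CPM in PF+MBV 1 to 4. With ethanol they were 19.8, 14.7, 18.0 and 20.4 CPM in EtOH 1 to 4 and 14.6, 22.0, 25.9 and 25.5 CPM in EtOH+MBV 1 to 4. PF and PF+MBV overlapped for Bysl, with a log2 difference of -0.14 ± 0.20, and it was 0.65 ± 0.20 between the MBV groups. In CPM, Ltv1 was at 15.5, 9.90, 14.4 and 16.6 in PF 1 to 4 and at 11.3, 12.2, 13.7 and 11.3 in PF+MBV 1 to 4. The ethanol groups had 23.8, 20.1, 23.4 and 26.0 CPM in EtOH 1 to 4 and 14.9, 27.9, 29.6 and 25.9 CPM in EtOH+MBV 1 to 4. For Ltv1 EtOH and PF did not overlap, with a log2 difference of 0.72 ± 0.19. In PF+MBV against PF it was -0.21 ± 0.19, with overlap.

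Of 14 factors of the large subunit, 13 had a fitted difference below 0 in PF+MBV against PF, as did 49.4% of all genes. Ppan and Gnl3, 2 of the 14, were called lower, where 1.03% of all genes were. In EtOH+MBV against PF+MBV 11 were called higher, where 19.2% of all genes were. Ppan, an early factor of the 60S particle (chr9:20888175-20892178), had no overlap between PF+MBV and any other group. Ppan stood at 16.4, 13.6, 16.6 and 17.8 CPM in PF 1 to 4 and at 8.11, 5.89, 9.99 and 7.79 CPM in PF+MBV 1 to 4. EtOH 1 to 4 gave 20.9, 14.3, 19.6 and 18.5 CPM and EtOH+MBV 1 to 4 gave 14.9, 24.6, 25.7 and 21.2 CPM. The log2 difference was -1.01 ± 0.18 against PF and 1.44 ± 0.18 between the MBV groups. Nop2 is a methyltransferase of the large-subunit RNA (chr6:125131909-125144753). Pair-fed levels of Nop2 were 34.0, 16.7, 27.5 and 30.0 CPM in PF 1 to 4 and 15.2, 14.0, 18.6 and 17.8 CPM in PF+MBV 1 to 4. Those on ethanol were 20.6, 17.6, 21.5 and 30.4 CPM in EtOH 1 to 4 and 29.6, 31.1, 39.4 and 37.3 CPM in EtOH+MBV 1 to 4. With MBV it was lower on the pair-fed diet, by a log2 difference of -0.72 ± 0.20, and higher on ethanol, at 0.61 ± 0.20. Neither was called.

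Gnl3 (nucleostemin), a GTPase of the nucleolus (chr14:31012433-31019152), was the other large-subunit factor called. Gnl3 measured 43.5, 28.8, 35.7 and 43.5 CPM in PF 1 to 4 and 20.7, 23.7, 24.2 and 21.5 CPM in PF+MBV 1 to 4. It was at 49.1, 34.2, 37.8 and 41.7 CPM in EtOH 1 to 4 and 26.8, 48.8, 51.2 and 48.7 CPM in EtOH+MBV 1 to 4. The 4 PF+MBV libraries were below all PF libraries, with a log2 difference of -0.75 ± 0.18. Rrs1, which brings the 5S particle to the large subunit, stood at 25.7, 26.6, 30.7 and 33.1 CPM in PF 1 to 4 and 18.1, 15.4, 20.8 and 19.4 CPM in PF+MBV 1 to 4. The groups did not overlap. Its log2 difference was -0.65 ± 0.17, and 0.77 ± 0.17 between the MBV groups. Grwd1, a histone-binding protein of the early particle, differed by -0.48 ± 0.15 on the pair-fed and 0.33 ± 0.15 on the ethanol diet. The remaining factors of this role, Nop16, Rrp1b, Mrto4, Nle1, Wdr74 and Noc2l, differed in PF+MBV against PF by -0.82 (Nle1) to -0.15 (Noc2l).

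Heatr3, which helps bring ribosomal proteins of the 5S particle into the nucleus (chr8:88137855-88172027), was the gene called in EtOH+MBV against EtOH. Levels of Heatr3 were 30.1, 25.2, 30.0 and 35.8 CPM in PF 1 to 4 and 21.8, 22.4, 25.9 and 23.2 CPM in PF+MBV 1 to 4. With ethanol they were 22.8, 21.6, 22.5 and 24.8 CPM in EtOH 1 to 4 and 31.4, 32.1, 34.3 and 29.5 CPM in EtOH+MBV 1 to 4. The 4 EtOH libraries were below the 4 EtOH+MBV libraries, and also below the 4 PF libraries. Its log2 difference was 0.47 ± 0.10 in EtOH+MBV against EtOH, -0.40 ± 0.10 in EtOH against PF and -0.37 ± 0.10 in PF+MBV against PF. Pes1 and Bop1, which form a complex with Wdr12, differed little from PF to PF+MBV. In CPM, Pes1 was at 29.7, 28.9, 34.1 and 36.2 in PF 1 to 4 and at 28.6, 30.2, 29.7 and 28.4 in PF+MBV 1 to 4. The ethanol groups had 44.7, 31.1, 36.3 and 36.4 CPM in EtOH 1 to 4 and 32.7, 41.7, 43.2 and 40.1 CPM in EtOH+MBV 1 to 4. PF and PF+MBV overlapped for Pes1, with a log2 difference of -0.14 ± 0.12, and it was 0.43 ± 0.12 between the MBV groups. Bop1 stood at 23.2, 23.7, 23.3 and 24.2 CPM in PF 1 to 4 and at 22.2, 24.8, 21.5 and 25.9 CPM in PF+MBV 1 to 4. EtOH 1 to 4 gave 25.4, 27.5, 22.2 and 25.5 CPM and EtOH+MBV 1 to 4 gave 27.5, 27.5, 28.4 and 25.3 CPM. For Bop1 the groups overlapped, with a log2 difference of 0.00 ± 0.09 in PF+MBV against PF and 0.20 ± 0.09 between the MBV groups.

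The last 4 genes, Ncl, Npm1, Ddx21 and Mybbp1a, encode abundant nucleolar proteins with several roles. All 4 had a fitted difference below 0 in PF+MBV against PF, from -0.54 to -0.32. Of them edgeR called 0, where 1.03% of all genes were called lower. All 4 had an unadjusted p under 0.05, as did 16.9% of all genes. Ddx21, an RNA helicase, differed by -0.54 ± 0.20, and Mybbp1a, a nucleolar regulator of transcription, by -0.32 ± 0.12. Ncl (nucleolin) is a chromatin and RNA chaperone (chr1:86344719-86359400). Pair-fed levels of Ncl were 181, 157, 201 and 191 CPM in PF 1 to 4 and 145, 139.8, 152 and 141 CPM in PF+MBV 1 to 4. Those on ethanol were 194, 169.6, 165 and 203 CPM in EtOH 1 to 4 and 173, 192, 194 and 182 CPM in EtOH+MBV 1 to 4. For Ncl each PF+MBV library was below each PF library, a log2 difference of -0.34 ± 0.10. Npm1 (nucleophosmin), a histone and ribosome chaperone (chr11:33152287-33163206), stood at 113, 86.1, 120.1 and 117 CPM in PF 1 to 4. The other groups stood at 79.2, 90.2, 89.5 and 82.7 CPM in PF+MBV 1 to 4, 100.3, 78.6, 83.6 and 97.2 in EtOH 1 to 4 and 80.6, 84.6, 91.5 and 85.1 in EtOH+MBV 1 to 4. PF 1, PF 3 and PF 4 were above every other library for Npm1. Npm1 and Fbl both had their highest group mean in PF and differed little between the MBV groups, by 0.00 ± 0.11 and 0.02 ± 0.12.

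The MBV effect was compared between the diets by the difference of the 2 effects (the interaction), whose comparisons on the pair-fed and on the ethanol diet share no library. On the fitted values 33 of the 41 genes (80.5%) were lower with MBV on the pair-fed diet and higher on ethanol, which held for 28.2% of all genes tested. The median interaction was 0.58 on the log2 scale, against 0.00 over all genes. It was called for 12 of the 41 genes, all positive, where 2.02% of all genes were called positive: Nop56, Nop2, Nolc1, Ppan, Tsr1, Rrp12, Pdcd11, Nob1, Heatr3, Wdr43, Polr1b and Grwd1. The largest was Rrp12 at 1.50 ± 0.30, from -1.13 ± 0.22 on the pair-fed diet and 0.37 ± 0.21 on ethanol. Pdcd11 followed at 1.40 ± 0.26 and Nop2 at 1.33 ± 0.28. The interaction of Nop56, 1.04 ± 0.22, rested on -0.89 ± 0.15 on the pair-fed diet and 0.15 ± 0.15 on ethanol. For Heatr3 the effects on the diets were nearer in size, -0.37 ± 0.10 and 0.47 ± 0.10. The number called was 5 with scaling by library size only and 9 to 18 when single libraries were left out, and 9 of the 12 genes (all but Wdr43, Polr1b and Grwd1) were called in all 16 cases.

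**Figure D5:**
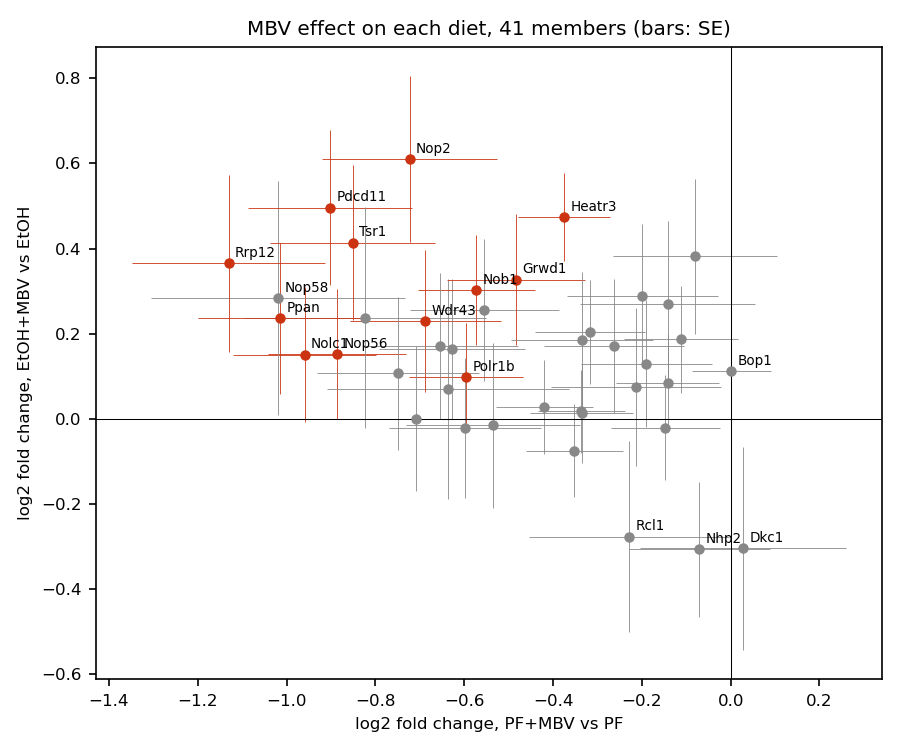
Fitted log2 difference with MBV on the pair-fed diet (x axis) and on the ethanol diet (y axis) for the 41 genes (points), with SE bars. Red points are genes whose interaction was called, and grey points are the rest of the 41. Other genes are not drawn. Of the 41 genes 33 lie to the left of 0 and above 0, against 28.2% of all genes.

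The rest of the pathway was read from 4 further lists of 122 genes, drawn up by role and not by their levels, though with earlier results of these libraries known, and all 122 were tested. In PF+MBV against PF 6 were lower (4.92%) and 0 higher, with a median of -0.18, where 1.03% of all genes were called lower and 0.752% higher. At an unadjusted p under 0.05 41 were lower and 0 higher, where 16.9% of all genes had such a p. P-values of single genes in this and the next paragraphs are edgeR's, adjusted by Benjamini-Hochberg over all genes. Mphosph10, a partner of the U3 snoRNP, fell by 0.95 ± 0.19 on the log2 scale (adjusted p = 0.0186). Its levels were 16.5, 11.9, 15.1 and 18.6 CPM in PF 1 to 4 and 5.23, 7.25, 10.3 and 9.28 CPM in PF+MBV 1 to 4, with no overlap. The other 5 genes that fell act in both subunits. Utp18 and Pwp2, scaffold proteins of the early small subunit, fell by 0.56 ± 0.13 (adjusted p = 0.042) and 0.43 ± 0.11 (adjusted p = 0.0491). Of large-subunit factors, the GTPase Gtpbp4 fell by 0.81 ± 0.17 (adjusted p = 0.0237), the export adaptor Nmd3 by 0.53 ± 0.11 (adjusted p = 0.0221) and the kinase Nol9 by 0.59 ± 0.14 (adjusted p = 0.0437). Of the other 13 genes of RNA polymerase I and its factors 0 were called in this comparison by edgeR, and 5 were lower at an unadjusted p under 0.05.

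Between the MBV groups 63 of the 122 genes were higher in EtOH+MBV and 3 lower (54.1% in all), where 19.2% of all genes were called higher and 16.7% lower, with a median of 0.34. By list, 5 of 13 genes of the RNA polymerase I machinery, 3 of 12 snoRNP factors, 23 of 46 small-subunit factors and 32 of 51 large-subunit factors were higher. The polymerase subunit Polr1e rose by 1.22 ± 0.19 on the log2 scale (adjusted p = 0.00019), the helicase-associated factor Utp14a by 1.13 ± 0.18 (adjusted p = 0.000227) and the GTPase Gnl2 by 1.10 ± 0.14 (adjusted p = 4.8e-05). Nop10, a small protein of the box H/ACA core, fell by 0.53 ± 0.11 (adjusted p = 0.00142), the same direction as Dkc1. In EtOH against PF 18 of the 122 were higher and 14 lower (26.2% in all), below the 39.8% of all genes called. Eif6, which keeps the subunits apart, rose by 1.28 ± 0.12 (adjusted p = 2.41e-06), with 45.7, 41.1, 50.5 and 56.4 CPM in PF 1 to 4 and 141, 107, 109.7 and 111 CPM in EtOH 1 to 4. The groups did not overlap, as for Rcl1 and Ltv1. In EtOH+MBV against EtOH edgeR called 0 of the 122, and 17 were higher and 2 lower at an unadjusted p under 0.05, which 21.1% of all genes had. The interaction was called for 7 of the 122 (5.74%), all positive, where 2.02% of all genes were called positive, with Noc3l at 1.31 ± 0.29 (adjusted p = 0.0239) and Taf1c at 1.96 ± 0.46 (adjusted p = 0.0298). Taf1c stood at only 0.64 to 3.67 CPM over the libraries.

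Myc, which binds sites with the letters shown above, was higher on the ethanol diet. It stood at 6.36, 13.3, 13.8 and 5.78 CPM in PF 1 to 4 and 47.9, 25.4, 26.3 and 32.3 CPM in EtOH 1 to 4, with no overlap, and rose by 1.75 ± 0.47 on the log2 scale (adjusted p = 0.00832). Its levels were 10.9, 12.5, 20.1 and 47.3 CPM in EtOH+MBV 1 to 4 and 10.9, 3.57, 2.65 and 5.10 CPM in PF+MBV 1 to 4. In PF+MBV against PF its difference was -0.83 ± 0.49 (adjusted p = 0.428), with overlap, and in EtOH+MBV against EtOH it was -0.54 ± 0.46 (adjusted p = 0.528). In EtOH+MBV against PF+MBV the difference of Myc was 2.04 ± 0.49 (adjusted p = 0.0047), though the groups overlapped. The interaction was 0.29 ± 0.67 (adjusted p = 0.83). Of the 11 genes of the Myc network tested, edgeR called 0 in PF+MBV against PF, where 1.03% of all genes were called lower and 0.752% higher. At an unadjusted p under 0.05 2 were higher, where 16.9% of all genes had such a p in either direction. In EtOH against PF, Myc's antagonist Mnt rose by 1.12 ± 0.19 (adjusted p = 0.000265) and Mlx by 0.38 ± 0.13 (adjusted p = 0.0346), while the repressor Mxd4 fell by 0.54 ± 0.11 (adjusted p = 0.00099) and Mlxipl by 0.86 ± 0.24 (adjusted p = 0.009). Max, the shared partner, differed by -0.26 ± 0.12 (adjusted p = 0.106) in that comparison.

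A further feature of the group is that several of its genes carry snoRNAs, the guide RNAs of the snoRNPs, within their bounds. In the GENCODE M21 annotation 8 of the 41 (19.5%) did, with 23 snoRNAs, against 226 of the 12467 tested genes with a match (1.81%). They are Nop56 with 5, Nop58 with 4, Ncl, Wdr43 and Gnl3 with 3 each, Ppan and Tsr1 with 2 each and Dkc1 with 1. The 8 host genes had a median log2 difference of -0.80 in PF+MBV against PF and the other 33 a median of -0.37. All but Dkc1 of the 8 were lower by fit. Of 10 other host genes listed, edgeR called 0 in this comparison, where 1.03% of all genes were called lower. At an unadjusted p under 0.05 2 were lower, where 16.9% of all genes had such a p in either direction. Among these 10 host genes Snhg1, a host RNA that makes no protein, rose by 1.36 ± 0.19 (adjusted p = 9.51e-05) between the MBV groups. Its levels were 6.29, 5.35, 6.04 and 5.61 CPM in PF+MBV 1 to 4 and 9.43, 13.2, 18.3 and 19.1 CPM in EtOH+MBV 1 to 4. Of the 41 genes 23 share exon bases with another gene of this annotation, Nop56, Nop58, Ppan, Tsr1, Pdcd11, Heatr1 and Gnl3 among them. Nop58 and Ppan share such bases only with snoRNAs inside them. In unstranded counts, reads on bases shared between genes are set apart as ambiguous and counted for neither gene. The gene models used for these counts were not given, and their shared bases may differ. Nolc1, Rrp12, Nob1 and Polr1b share no exon bases in the M21 annotation.

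Markers of the liver's cell types and of the cell cycle were read beside these results. Of 58 markers tested, edgeR called 0 in PF+MBV against PF, where 1.03% of all genes were called lower and 0.752% higher. At an unadjusted p under 0.05 3 were higher and 3 lower, where 16.9% of all genes had such a p. The summed level of 8 hepatocyte markers, of which Alb makes up a large part, was 93327 to 129132 CPM in PF and 87635 to 104354 CPM in PF+MBV. The overlap of these sums came from PF 2 alone: PF 1, 3 and 4, at 118515, 119914 and 129132 CPM, were above each PF+MBV library. PF 2 was also the lowest PF library for 31 of the 41 genes. Singly the 8 markers differed by log2 values of -0.82 to 0.63, with 6 below 0 and 2 above. The 8 Kupffer cell markers summed to 300.3 to 395 CPM in PF and 307 to 365 CPM in PF+MBV, and 10 monocyte and macrophage markers to 79.5 to 109 and 87.2 to 95.7 CPM. The ranges of both overlapped. The 8 endothelial markers summed to 434 to 483 and 439 to 473 CPM. The 8 stellate cell markers summed to 221 to 244 CPM in PF and 257 to 295 CPM in PF+MBV, with no overlap, the PF+MBV libraries being higher. The 10 cell cycle genes summed to 37.2 to 42.3 CPM in PF and 34.9 to 43.5 CPM in PF+MBV. In EtOH they summed to 28.4 to 44.7 CPM in EtOH 2, 3 and 4 and to 183 CPM in EtOH 1. EtOH 1 was thus high in cell cycle genes, and it stood apart in other sums too. It had 529 CPM of Kupffer cell markers, against 184 to 256 CPM in EtOH 2, 3 and 4. Monocyte and macrophage markers summed to 167 against 56.7 to 80.0 CPM, and stellate cell markers to 397 against 217 to 282 CPM. Its hepatocyte sum, 86621 CPM, was the lowest of the group, against 106713 to 146346 CPM. The part of these sums in the levels of EtOH 1 was not tested. The 5 neutrophil markers in the counts summed to 0.55 to 4.66 CPM in PF and 0.931 to 6.98 CPM in EtOH. In EtOH+MBV they summed to 0.877 to 6.03 CPM and in PF+MBV to 0.989 to 1.72 CPM. Of these 5, Mpo alone was at 0 in all libraries of EtOH, EtOH+MBV and PF+MBV. The part of the hepatocyte and stellate cell markers in the difference between PF and PF+MBV was not tested.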

How the data were processed

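Polyadenylated liver RNA was sequenced from 16 libraries in 4 groups of 4. The deposited tables hold counts of reads per gene, 24411 gene symbols a library, as the authors' pipeline gave them and with no normalization. Trimmomatic, STAR and the mouse build mm10 were used, per the submitters' processing notes. Tool versions and gene models were not given in the sources used here. From each table the unstranded column was taken, because each stranded column held near equal reads (50.58% to 51.79% in 1 of them). The 4 categories that are not genes were left out of library sizes: they include reads outside genes (9.397% to 10.87% per library) and ambiguous reads (1.348% to 1.693%). STAR's gene counts take uniquely mapped reads alone, so near-identical gene copies lose reads.

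The filterByExpr filter of edgeR (minimum count 10) retained 12901 genes. Libraries were scaled by TMM (factors 0.863 to 1.269), and edgeR 4.0.16 fitted 1 mean per group to all 16 libraries by quasi-likelihood in R 4.3.3. For each of 5 contrasts, Benjamini-Hochberg adjustment ran over the 12901 genes, and an adjusted p under 0.05 is a call. Levels are CPM of TMM-scaled library sizes; log2 CPM used a prior count of 2. Errors of levels are SD and errors of log2 differences are SE of the fit. The alternatives were other size factors and filters, limma 3.58.1 (voom), DESeq2 1.42.0, a replicate block, each comparison fitted alone and libraries left out; 3 of them were added after the data were seen.

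The members and lists were chosen with earlier results of these data known. Utp4 is listed under the older symbol Cirh1a, matched through RefSeq. Members given library by library were 15 fixed by role plus, per contrast, the 3 with the smallest p and the largest and smallest log2 difference, 24 in all; Gar1, Rrp9, Wdr43, Gnl3, Grwd1, Rrs1, Ddx21 and Mybbp1a were added after their values were seen. Of other lists, up to 3 called genes per list and contrast with the smallest p are named. Positions and exon lengths come from GENCODE M21 (GRCm38), and promoters from RefSeq (GRCm38.p6).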

Additional observations from a re-analysis of the deposited data

Results flagged for a closer look

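In groups of 4 libraries, a library was marked when its gap to the nearest of the others exceeded Dixon's critical share of the group's range. Of 104 groups looked at, over 24 genes given library by library and 2 summaries of all 41, 2 were marked, where chance marks about 1 in 20. Nob1 was at 9.89 CPM in EtOH 2, where EtOH 1, 3 and 4 ranged from 12.0 to 12.2 CPM. Heatr1 was at 24.2 CPM in EtOH+MBV 1 and at 37.3 to 39.7 CPM in the others of that group.

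For 12 of the 41 genes the effect of MBV differed between the diets by edgeR's interaction term, adjusted by Benjamini-Hochberg over all genes. These genes were chosen with the levels known, so the p-values describe the fit and do not test the choice. Box C/D snoRNP genes gave log2 interactions of 1.04 (adjusted p = 0.02) for Nop56 and 1.11 (adjusted p = 0.0188) for Nolc1. Small-subunit factors gave 1.50 (adjusted p = 0.0188) for Rrp12, 1.40 (adjusted p = 0.0143) for Pdcd11, 1.27 (adjusted p = 0.0188) for Tsr1, 0.92 (adjusted p = 0.0405) for Wdr43 and 0.87 (adjusted p = 0.0209) for Nob1. Large-subunit factors gave 1.33 (adjusted p = 0.0197) for Nop2, 1.25 (adjusted p = 0.0188) for Ppan, 0.85 (adjusted p = 0.0108) for Heatr3 and 0.81 (adjusted p = 0.0462) for Grwd1. The polymerase subunit Polr1b gave 0.69 (adjusted p = 0.0409). In each of the 12 the fitted effect was below 0 on the pair-fed diet and above 0 on ethanol.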

How the results depend on the processing

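The median log2 difference of EtOH against PF lay near 0 and changed sign in some fits; the other medians kept their sign in all fits. With 1 library left out, the number of the 41 genes called was 6 to 11 in EtOH against PF (8 with all libraries), 0 to 3 in EtOH+MBV against EtOH (1), 3 to 23 in PF+MBV against PF (11), 31 to 33 in EtOH+MBV against PF+MBV (33) and 9 to 18 in the interaction (12). The medians were -0.01 to 0.17, 0.09 to 0.26, -0.61 to -0.36, 0.75 to 0.87 and 0.51 to 0.66 in the same order. Scaling by library size only, chosen after seeing the data, moved the median of all genes to 0.06, -0.11, 0.07, -0.15 and -0.18. It gave 0 genes called in EtOH+MBV against EtOH, 6 in PF+MBV against PF and 5 in the interaction, whose median was 0.41. DESeq2 called 21 in PF+MBV against PF. With only the 2 groups compared in the fit, 5 (3 higher, 2 lower) were called in EtOH against PF, 0 in EtOH+MBV against EtOH, and PF+MBV against PF had 19. Without EtOH 1 and EtOH+MBV 1, also chosen after seeing the data, the calls were 0, 22 and 21 in EtOH+MBV against EtOH, PF+MBV against PF and the interaction, with an interaction median of 0.74. Without PF 2 and EtOH+MBV 1, likewise chosen afterwards, they were 3, 24 and 25, with a median of 0.75. The share of all genes called in these fits is not given beside the counts. A change in the 41 genes was thus not separated from one over all genes. The causes were not tested.

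Whether the replicate numbers pair the libraries was not settled. Same-numbered libraries had correlations of their deviations of -0.12 to 0.17 over 24 pairs, 3 of them above 0.1. In 4 of the 24 pairs the same number was the best match. Low correlations in groups of 4 cannot exclude a link by number. With the replicate block, 8, 1, 10, 33 and 11 of the 41 genes were called in the 5 comparisons, with medians of 0.09, 0.17, -0.47, 0.76 and 0.58.

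Of 3096 values of single genes over the alternatives, 3073 moved by less than the spread between replicates, 23 moved further and 0 changed sign where called. Depth limits the genes of few reads, such as Taf1c.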
